A study of Rhodotorula toruloides with 9 samples.

Results

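A set of 51 genes of the basidiomycete yeast Rhodosporidium toruloides held nearly the same transcript level on d-galacturonic acid (d-galUA), d-glucose (d-glc) and glycerol, at a middle level of expression. They are described here as candidate reference genes, with the spread of each over the 9 libraries. The members were chosen by their measured values: the mean FPKM (fragments scaled for gene length and for the number of mapped reads of the library) on each of the 3 carbon sources had to lie from 100 to under 1000, and the highest of the 3 means could lie at most 15% above the lowest. Of 8578 gene models, 8486 carried a protein number, 572 of these had all 3 means within the level limits, and 51 also met the limit on the ratio. The other 92 models without protein numbers (the CAND models) were not eligible, and 0 of them met both limits. Equal means on the 3 carbon sources are therefore what the choice required and not a result, and the values below describe the members and the spread that the choice left free.

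All libraries came from strain IFO0880, grown in liquid yeast nitrogen base with d-galUA, d-glc or glycerol at 2% as the carbon source. The labels give 3 libraries for d-galUA, 4 for d-glc and 2 for glycerol, and the study's methods describe triplicate cultures inoculated from 1 starter culture, so the spread between libraries of a group does not include variation between starter cultures. The labels place the harvest in log phase, and the methods place it at the onset of stationary phase. The library labelled d-glc 4 was averaged with glycerol 1 and 2, because among all 84 sets of 3 libraries this set matched the glycerol means of the study's own gene table best, with a median difference of 5.96e-05% over 1999 genes against 9.83% for the next set, and the membership, the counts of called genes and the spread within groups are also given with the groups as labelled. The intervals and the overlap of ranges are given for this grouping alone. Estimated from the ratio of coverage to FPKM, the libraries held about 25800000 to 51900000 mapped reads (median 35200000). The deepest was d-glc 3 and the shallowest the library labelled d-glc 4.

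Reference genes are the transcripts against which others are scaled when RNA is measured one gene at a time, as in quantitative PCR. A useful one has a level that neither the growth condition nor the handling of the sample moves, and lies near the level of the genes it is set against. Genes of basic cell functions, such as actin, tubulin, glyceraldehyde-3-phosphate dehydrogenase and translation elongation factor 1 alpha, are the customary choices in yeasts. Many of these serve carbon metabolism or growth, which differ between carbon sources. Roles given below are those of the Saccharomyces cerevisiae orthologs that the study's gene table lists.

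**Figure D1:**
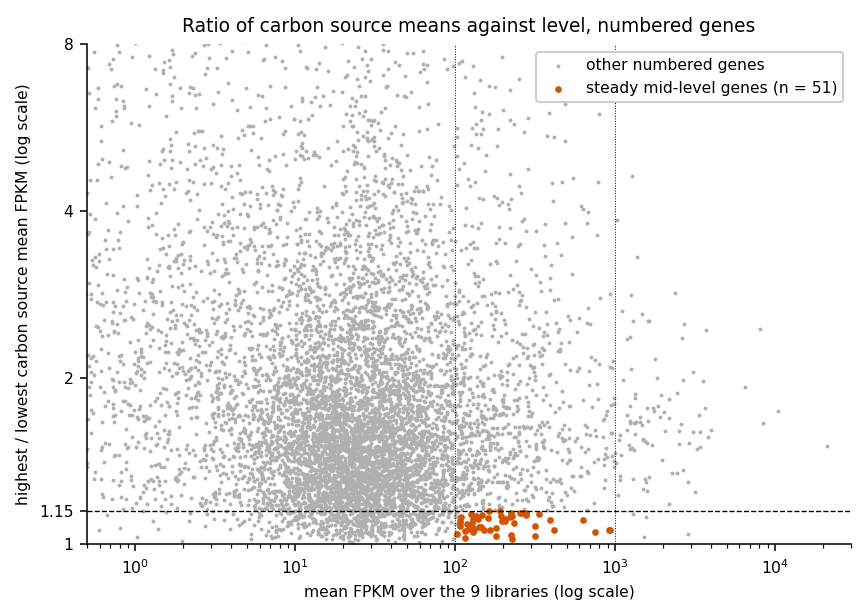
Each point is a numbered gene, with its mean FPKM over the 9 libraries on the horizontal log axis and the ratio of its highest to its lowest carbon source mean on the vertical log axis. The 51 members (orange) fill the area between the dotted lines at 100 and 1000 FPKM and under the dashed line, where the highest mean is 15% above the lowest, and 721 genes with a ratio above 8 or a mean below 0.5 FPKM lie outside the axes.

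The members made up 8.92% of the numbered genes within the level limits. Their ratio of highest to lowest mean ran from 1.02 to 1.149 with a median of 1.09, against a median of 1.54 over all 572 genes at that level. Beyond the level limits, the same ratio was met by 504 numbered genes with a mean under 100 FPKM and by 4 with a mean of 1000 or more. The 3 means were highest on d-galUA in 17 members, while d-glc gave the highest in 15 and glycerol in 19. Most members lay in the lower portion of the level range, with 30 at 100 to 200 FPKM, 12 at 200 to 300, 5 at 300 to 500 and 4 at 500 to 1000.

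The limma F test across the 3 carbon sources called 0 of 51 members at an adjusted p under 0.05, and 0 at an unadjusted p under 0.05, where it called 69.5% of all 8479 genes tested and 73.3% of the 572 genes within the level limits. Since the members were chosen on these means, nothing is read from that count. The error left on the differences can be read from their 95% intervals. All 3 pairwise intervals of a member lay within 25% for 13 members, within 1.5-fold for 48 and within 2-fold for 51. The narrowest reached 1.198-fold, in RTO4_13311 (MSL5), and the widest 1.90-fold, in RTO4_16703. Differences larger than those between the means thus lay within the error. The ranges of the libraries did not overlap between d-galUA and d-glc in 4 members (59.0% of all genes tested), between d-galUA and glycerol in 10 (66.7%), and between d-glc and glycerol in 2 (56.4%). In all, 12 members had at least 1 pair of carbon sources with separate ranges (84.1% of all genes tested), and in 39 every range overlapped every other.

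The spread over the 9 libraries was not part of the choice, although a low ratio of means limits it from one side. The coefficient of variation (CV, the SD over the mean of the 9 FPKM values) had a median of 9.08% over the members, with quartiles at 7.45% and 11.9% and a range of 4.402% to 24.1%. It was under 5% in 3 members, under 8% in 19, under 10% in 29 and 15% or more in 4. The other 521 genes within the level limits had a median CV of 24.1%, which includes their differences between carbon sources. Within carbon sources the gap was small: the CV around the group means had a median of 9.198% in the members and 10.4% in the other genes. The ratio of the highest to the lowest library had a median of 1.32 and a range of 1.13 to 2.55, and 40 members stayed at or under 1.5.

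The d-glc libraries carried most of this spread. The CV among the 3 libraries of a group had a median over members of 2.98% for d-galUA, 12.8% for d-glc and 9.04% for glycerol, and the d-glc libraries gave the largest of the 3 in 45 members, the glycerol libraries in 6 and the d-galUA libraries in 0. The other genes at that level had medians of 4.23%, 14.4% and 7.45% on the same carbon sources. With the groups as labelled, the members' medians were 12.1% over the 4 d-glc libraries and 6.93% over the 2 glycerol libraries. Library d-glc 3 was at once the lowest of the 9 libraries for 21 members and the highest for 12. The library d-glc 1 was the lowest for 10 and glycerol 2 for 10. Leaving out d-glc 3 brought the median CV of the members to 7.87%.

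**Figure D2:**
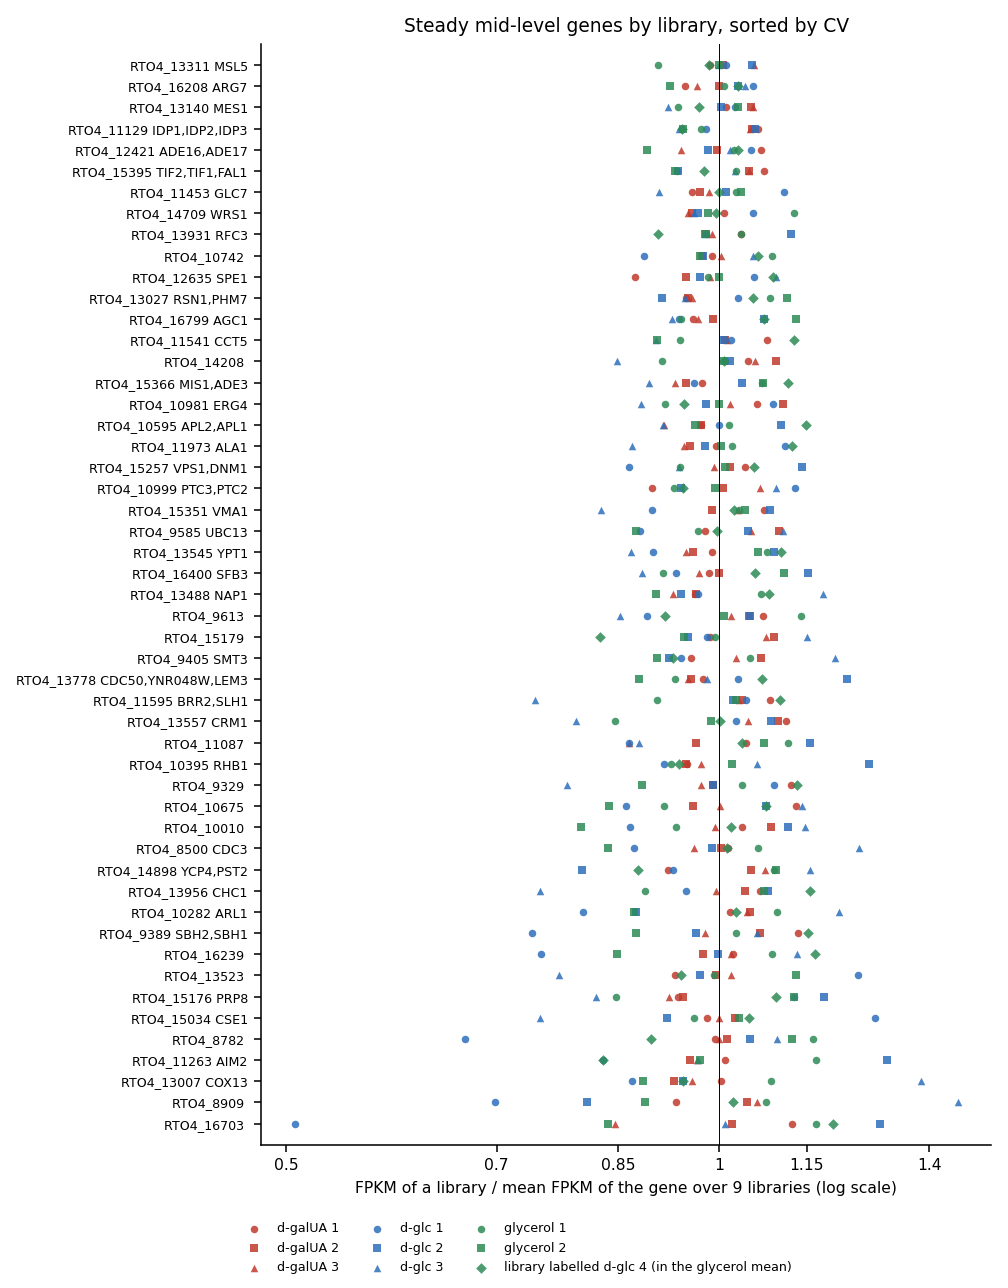
Each row is 1 of the 51 members, sorted by CV over the 9 libraries, and each symbol 1 library, placed on a log axis by the ratio of its FPKM to the member's mean over the 9 libraries (red d-galUA, blue d-glc, green the libraries averaged as glycerol). The points widen from MSL5 at the top (CV 4.402%) to RTO4_16703 at the bottom (24.1%), and the blue symbols lie outermost in most rows.

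RNA splicing and processing gave the member of the lowest spread. RTO4_13311 (scaffold 3, 1372018 to 1374079, minus strand) is the ortholog of MSL5, the protein that binds the branch point of introns. Its FPKM was 129, 132 and 139 in d-galUA 1 to 3, 133, 138 and 131 in d-glc 1 to 3, 119 and 131 in glycerol 1 and 2, and 129 in that labelled d-glc 4. The CV was 4.402%, the ranges of all 3 carbon sources overlapped, and the lowest value was that of glycerol 1. The other members of the same machinery spread more, which follows from MSL5 having the lowest CV of all members. RTO4_15176 (PRP8, the scaffold protein at the spliceosome core) had means of 151 ± 1.71, 169 ± 31.4 and 165 ± 24.7 FPKM on d-galUA, d-glc and glycerol, where ± here and below is the SD over the libraries of a group (n = 3). RTO4_11595 (BRR2 and SLH1, large RNA helicases of the spliceosome and the ribosome) had means of 115 ± 3.22, 103 ± 18.3 and 111 ± 10.9 FPKM in the same order. The SD of both on d-glc was above that of MSL5.

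The synthesis of amino acids and polyamines and the loading of amino acids on tRNA gave 5 members, 3 of them aminoacyl-tRNA synthetases. RTO4_16208 (ARG7, the mitochondrial ornithine acetyltransferase of arginine synthesis; scaffold 8, 1182545 to 1184451, minus strand) had the second lowest CV, at 4.54%. Its FPKM was 117, 123 and 119 in d-galUA 1 to 3, 130.1, 127 and 128 in d-glc 1 to 3, 124 and 114 in glycerol 1 and 2, and 127 in that labelled d-glc 4. The 3 d-glc libraries lay above all d-galUA libraries, while the means differed by a factor of 1.07. RTO4_13140 (MES1, methionyl-tRNA synthetase; scaffold 3, 981109 to 984145, plus strand) had a CV of 4.85% and overlaps a neighboring model on the same strand over 71 bp. Its FPKM was 154, 160.4 and 161 in d-galUA 1 to 3, 157, 153 and 140.4 in d-glc 1 to 3, 143 and 157 in glycerol 1 and 2, and 148 in that labelled d-glc 4, lowest in d-glc 3. RTO4_14709 (WRS1, tryptophanyl-tRNA synthetase; scaffold 6, 587053 to 588639, plus strand) had a CV of 5.73%. Its FPKM was 166, 158 and 157 in d-galUA 1 to 3, 174, 159 and 158 in d-glc 1 to 3, 186 and 162 in glycerol 1 and 2, and 164 in that labelled d-glc 4, and all but glycerol 1 lay within 157 to 174. RTO4_11973 (ALA1, alanyl-tRNA synthetase) had means of 115 ± 3.18, 117 ± 14.4 and 125 ± 7.74 FPKM and a CV of 7.97%. RTO4_12635 (SPE1, ornithine decarboxylase, the first step of polyamine synthesis) had means of 193 ± 11.8, 215 ± 13.4 and 211 ± 11.98 FPKM and a CV of 7.15%.

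Enzymes of central and nucleotide metabolism were among the steadiest of the more abundant members. RTO4_11129 (scaffold 15, 157050 to 159053, plus strand) matches IDP1, IDP2 and IDP3, the NADP-dependent isocitrate dehydrogenases. Its FPKM was 675, 669 and 667 in d-galUA 1 to 3, 622, 673 and 596 in d-glc 1 to 3, 616 and 599 in glycerol 1 and 2, and 598 in that labelled d-glc 4. The 3 d-galUA libraries were nearly equal and lay above all 3 libraries averaged as glycerol. This gene had the smallest ratio of highest to lowest library, 1.13, and on average the smallest SD of its log2 ratio to each of the other members, 0.16 (median over members 0.19, highest 0.40). RTO4_12421 (ADE16 and ADE17, the enzyme of the last steps of inosine monophosphate synthesis; scaffold 2, 1245333 to 1248162, minus strand) had a CV of 5.58%. Its FPKM was 339, 316 and 298 in d-galUA 1 to 3, 334, 312 and 323 in d-glc 1 to 3, 325 and 283 in glycerol 1 and 2, and 327 in that labelled d-glc 4. The lowest library was glycerol 2, and all ranges overlapped. RTO4_15366 (MIS1 and ADE3, the folate enzyme that supplies one-carbon units) had a CV of 7.58% and a ratio of means of 1.14. Its FPKM was 271, 264 and 259 in d-galUA 1 to 3, 268, 289 and 249 in d-glc 1 to 3, 298 and 299 in glycerol 1 and 2, and 311 in that labelled d-glc 4. All 3 libraries averaged as glycerol lay above every other library, so the ranges separated there.

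Regulation, translation and replication gave 3 more of the 10 members with the lowest CV. RTO4_15395 (scaffold 7, 705120 to 707282, plus strand) matches TIF1 and TIF2, which encode the helicase eIF4A of translation initiation, and its relative FAL1. Its FPKM was 251, 245 and 245 in d-galUA 1 to 3, 218, 219 and 239 in d-glc 1 to 3, 240.1 and 218 in glycerol 1 and 2, and 228 in that labelled d-glc 4. The d-galUA libraries were the highest, above every other library, and the CV was 5.61%. A second gene with the same orthologs, RTO4_13577, was not steady, and its values are given with the other translation factors. RTO4_11453 (GLC7, the catalytic subunit of protein phosphatase 1; scaffold 16, 284368 to 286217, plus strand) was the third most abundant member. Its FPKM was 718, 727 and 738 in d-galUA 1 to 3, 832, 759 and 681 in d-glc 1 to 3, 770.3 and 777 in glycerol 1 and 2, and 749 in that labelled d-glc 4. The d-glc libraries spanned the whole range of the other 6 and the CV was 5.64%. RTO4_13931 (RFC3, a subunit of the clamp loader of DNA replication; scaffold 5, 385295 to 387412, plus strand) had a CV of 5.93%. Its FPKM was 135, 128 and 129 in d-galUA 1 to 3, 128, 146 and 127 in d-glc 1 to 3, 135 and 127 in glycerol 1 and 2, and 118 in that labelled d-glc 4. Of the 9 values, 7 lay between 127 and 135.

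The last of these 10 members has no S. cerevisiae ortholog in the study's table. RTO4_10742 (scaffold 13, 746476 to 748351, minus strand) had a CV of 6.17%, and its FPKM was 178, 175 and 180.4 in d-galUA 1 to 3, 159, 175 and 190.0 in d-glc 1 to 3, 196 and 175 in glycerol 1 and 2, and 191 in that labelled d-glc 4. The lowest library was d-glc 1 and all ranges overlapped. The 10 lowest-CV members each kept their means within 15% of the lowest under all 13 alternatives that recompute it (other scaling, the groups as labelled, a correction for gene span, and each library left out in turn). Their low CV over the same libraries leaves little room for a larger shift, so this is not separate evidence of steadiness.

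Membranes and membrane traffic gave the largest group, 11 members. Of the vesicle coats, RTO4_13956 (CHC1, the clathrin heavy chain) had means of 229 ± 8.2, 206 ± 36.9 and 231 ± 30.5 FPKM and RTO4_10595 (APL2 and APL1, large subunits of clathrin adaptors) means of 122 ± 4.06, 129 ± 12.1 and 134 ± 12.4 FPKM. RTO4_16400 (SFB3, a cargo-binding subunit of the COPII coat) was the member of the lowest level. Its FPKM was 102, 103 and 99.9 in d-galUA 1 to 3, 96.4, 119 and 91.3 in d-glc 1 to 3, 94.4 and 115 in glycerol 1 and 2, and 109 in that labelled d-glc 4, so single libraries fell under 100 although the 3 means did not. The small GTPases were YPT1, ARL1 and RHB1, which act in transport from the endoplasmic reticulum, at the Golgi and in nutrient signaling. RTO4_13545 (YPT1) had means of 322 ± 7.0, 318 ± 40.5 and 361 ± 6.86 FPKM, RTO4_10282 (ARL1, which overlaps a model on the opposite strand over 107 bp) of 147 ± 2.58, 136 ± 30.8 and 141 ± 16.3 FPKM, and RTO4_10395 (RHB1) of 141 ± 1.94, 159 ± 26.2 and 141 ± 7.55 FPKM. Membrane remodeling was represented by a dynamin-like GTPase and a subunit of lipid flippases. RTO4_15257 (VPS1 and DNM1) had means of 183 ± 4.48, 177 ± 25.8 and 180.4 ± 10.7 FPKM, and RTO4_13778 (CDC50 and LEM3) of 218 ± 2.68, 245 ± 29.7 and 218 ± 22.3 FPKM. RTO4_9389 (SBH1 and SBH2, the small beta subunit of the Sec61 translocon) lay at the limit of the choice with a ratio of 1.149. Its FPKM was 217, 204 and 187 in d-galUA 1 to 3, 141, 184 and 203 in d-glc 1 to 3, 196 and 167 in glycerol 1 and 2, and 220.0 in that labelled d-glc 4, lowest in d-glc 1. RTO4_15351 (VMA1, the catalytic subunit of the vacuolar proton pump) had means of 201 ± 8.25, 183 ± 25.98 and 202 ± 1.71 FPKM. RTO4_13027 (RSN1 and PHM7, membrane proteins) had means of 249 ± 1.32, 252 ± 15.8 and 284 ± 7.79 FPKM and, of all members, the lowest adjusted p in the limma F test, 0.103.

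Nuclear transport and chromatin gave 3 members. RTO4_13557 (CRM1, the main protein exporter of the nucleus) had a ratio of 1.149, and its FPKM was 181, 179 and 171 in d-galUA 1 to 3, 167, 177 and 129.7 in d-glc 1 to 3, 138 and 161 in glycerol 1 and 2, and 163 in that labelled d-glc 4. It was low in d-glc 3 and glycerol 1, and the d-galUA libraries lay above all libraries averaged as glycerol. RTO4_15034 (CSE1, which returns importin alpha to the cytoplasm) had means of 115 ± 2.61, 113 ± 31.2 and 116 ± 5.46 FPKM, and RTO4_13488 (NAP1, a histone chaperone) of 301 ± 6.23, 326 ± 41.6 and 322 ± 31.4 FPKM. The CV of CSE1, 13.9%, arose with a ratio of means of only 1.03.

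Protein folding, modification and signaling gave 4 members besides GLC7. RTO4_9405 (SMT3, the ubiquitin-like modifier SUMO) was one of the most abundant, with an FPKM of 883, 987 and 948 in d-galUA 1 to 3, 869, 852 and 1111 in d-glc 1 to 3, 970.1 and 836 in glycerol 1 and 2, and 857 in that labelled d-glc 4. Only d-glc 3 exceeded 1000 FPKM. RTO4_9585 (UBC13, a ubiquitin-conjugating enzyme) had means of 215 ± 12.8, 208 ± 24.2 and 195 ± 12.9 FPKM. RTO4_11541 (CCT5, a subunit of the chaperonin that folds actin and tubulin) had means of 119.6 ± 4.56, 113 ± 7.37 and 115 ± 13.8 FPKM, and RTO4_10999 (PTC2 and PTC3, type 2C protein phosphatases) of 107 ± 9.31, 114 ± 10.7 and 103 ± 3.58 FPKM. The CVs of these 4 ran from 7.49% to 9.65%.

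The other members with an ortholog, apart from the highly variable AIM2 and COX13, were 4 genes of separate roles. RTO4_16799 (AGC1, the mitochondrial carrier of aspartate and glutamate) had means of 105 ± 1.72, 106 ± 8.88 and 113 ± 10.6 FPKM, RTO4_10981 (ERG4, the last enzyme of ergosterol synthesis) of 147 ± 6.35, 136 ± 14.5 and 132 ± 5.81 FPKM, and RTO4_8500 (CDC3, a septin of the bud neck) of 121 ± 3.47, 127 ± 23.7 and 119 ± 14.7 FPKM. RTO4_14898 (YCP4 and PST2, flavodoxin-like proteins) was the member of the highest level. Its FPKM was 858, 979.7 and 1002 in d-galUA 1 to 3, 865, 748 and 1077 in d-glc 1 to 3, 1017 and 1020.2 in glycerol 1 and 2, and 817 in that labelled d-glc 4, and 4 of the 9 libraries lay above 1000.

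The 5 members of the highest CV were AIM2, COX13 and 3 genes without an ortholog, and their library values differed more than their means would show. RTO4_16703 (scaffold 9, 964887 to 966157, plus strand; overlapping a model on the opposite strand over 25 bp) had an FPKM of 288, 262 and 217 in d-galUA 1 to 3, 129.9, 332 and 259 in d-glc 1 to 3, 299 and 214 in glycerol 1 and 2, and 308 in that labelled d-glc 4. Its d-glc libraries covered the whole range of the other 6, a factor of 2.55, although the means differed by a factor of 1.14. RTO4_8909 (scaffold 1, 1286707 to 1287606, minus strand) had an FPKM of 211, 237 and 240.5 in d-galUA 1 to 3, 158, 183 and 332 in d-glc 1 to 3, 244 and 201 in glycerol 1 and 2, and 232 in that labelled d-glc 4 and a CV of 21.6%. Its 3 means differed by a factor of 1.02, the smallest of all members, while d-glc 3 was 2.098 times d-glc 1. RTO4_13007 (COX13, a nuclear-encoded subunit of cytochrome c oxidase; scaffold 3, 664980 to 666575, plus strand) had an FPKM of 396, 367 and 377 in d-galUA 1 to 3, 343, 373 and 545 in d-glc 1 to 3, 429 and 349 in glycerol 1 and 2, and 372 in that labelled d-glc 4, high in d-glc 3, and a CV of 15.7%. RTO4_11263 (AIM2; scaffold 15, 476413 to 477699, plus strand) had an FPKM of 417, 395 and 399 in d-galUA 1 to 3, 343, 541 and 400.0 in d-glc 1 to 3, 482 and 401 in glycerol 1 and 2, and 343 in that labelled d-glc 4 and a CV of 15.2%. The highest library was d-glc 2, and d-glc 1 and the library labelled d-glc 4 were the lowest. RTO4_8782 (scaffold 1, 967592 to 968767, minus strand) had an FPKM of 276, 282 and 279 in d-galUA 1 to 3, 185, 293 and 306 in d-glc 1 to 3, 323 and 313 in glycerol 1 and 2, and 249.6 in that labelled d-glc 4 and a CV of 14.9%, and it was lowest in d-glc 1.

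The other 9 members without an ortholog are known only by number. Their means over the 9 libraries ran from 108 FPKM in RTO4_10675 to 225 in RTO4_15179, and their CVs from 7.52% in RTO4_14208 to 13.2% in RTO4_13523. RTO4_13523 had means of 219.8 ± 10.1, 223 ± 53.4 and 229 ± 21.98 FPKM, RTO4_9613 of 204 ± 5.37, 182 ± 20.2 and 199 ± 21.9 FPKM and RTO4_11087 of 130.0 ± 12.2, 131 ± 22.2 and 146 ± 5.42 FPKM. RTO4_9613 overlaps a model on the opposite strand over 318 bp, and the sources used here do not say whether reads were counted by strand. RTO4_16239 had means of 146 ± 3.92, 139 ± 27.96 and 149.8 ± 23.9 FPKM, RTO4_9329 of 132 ± 10.5, 123 ± 20.1 and 131 ± 16.1 FPKM and RTO4_10010 of 132 ± 5.93, 132 ± 19.5 and 116 ± 13.9 FPKM. In each of these 6 genes the d-glc SD was above the d-galUA SD. RTO4_14208 had means of 139 ± 3.26, 125 ± 12.3 and 127 ± 7.04 FPKM, RTO4_15179 of 237 ± 12.97, 231 ± 24.3 and 207 ± 19.3 FPKM and RTO4_10675 of 111 ± 9.64, 111 ± 15.8 and 102 ± 13.2 FPKM.

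The genes just past the limit on the ratio had a spread like that of the members just within it. Inside the ratio limit were MIS1/ADE3 at 1.142, CRM1 at 1.149 and SBH1/SBH2 at 1.149, and outside it RTO4_16644 (BMH1 and BMH2, the 14-3-3 proteins) at 1.153, RTO4_9127 (SSO1 and SSO2, plasma membrane SNAREs) at 1.156 and RTO4_10040 (LPD1, lipoamide dehydrogenase) at 1.156. The FPKM of RTO4_16644, which overlaps a neighbor over 474 bp, was 713, 725 and 735 in d-galUA 1 to 3, 573, 681 and 630.0 in d-glc 1 to 3, 628 and 662 in glycerol 1 and 2, and 678 in that labelled d-glc 4. That of RTO4_9127 was 166, 172 and 160.5 in d-galUA 1 to 3, 169, 190.2 and 165 in d-glc 1 to 3, 201 and 172 in glycerol 1 and 2, and 203 in that labelled d-glc 4, and that of RTO4_10040 was 428, 394 and 378 in d-galUA 1 to 3, 354, 426 and 365 in d-glc 1 to 3, 345 and 309 in glycerol 1 and 2, and 384 in that labelled d-glc 4. Their CVs were 7.85%, 9.02% and 10.1%, against 7.58%, 11.1% and 13.0% in the 3 members. The genes that met the ratio and lay just past the limits of level were RTO4_12259 (VPS21 and YPT52, endosomal GTPases) and RTO4_8908 below, with a lowest mean of 99.5 and 99.8 FPKM, and CPR1 (RTO4_15852) and RTO4_15078 above, with a highest mean of 1398 and 1534 FPKM.

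The members' deviations followed gene span in some libraries. Gene span, from start to end of the model, had a median of 2061 bp and a range of 789 to 9068 bp over the members, and a median of 1745 bp over the other genes at that level. Across the members, the Pearson correlation of log2 span with the deviation of a library (its log2 FPKM less the member's mean log2 FPKM over the 9 libraries) was -0.68 in d-glc 3, -0.50 in glycerol 1, 0.51 in d-glc 1, 0.46 in glycerol 2, 0.28 in the one labelled d-glc 4, and between -0.18 and 0.15 in the other 4 libraries. These correlations are across 51 genes that share a library and are given as a description. In the 521 other genes at that level the same correlations had the same sign in d-glc 3 (-0.25), d-glc 1 (0.19), glycerol 2 (0.14) and the library labelled d-glc 4 (0.06), and in glycerol 1 it was -0.06. The deviations of these other genes also include their differences between carbon sources, which the choice kept small in the members. The correlations of members and other genes are therefore not like for like. Their sizes do not show whether the trend on span was stronger in the members. In d-glc 3 the 26 members of up to the median span had a median deviation of 0.12 on the log2 scale and the 25 longer ones of -0.16. Of the short members, COX13 deviated by 0.48 and SMT3 by 0.27 in d-glc 3, and of the long ones PRP8 by -0.27, BRR2/SLH1 by -0.42 and CHC1 by -0.40. Removing each library's trend on span, an alternative added after seeing the data, gave 52 genes within the limits, of which 45 were members, and a median CV of 8.61%. The cause was not tested.

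**Figure D3:**
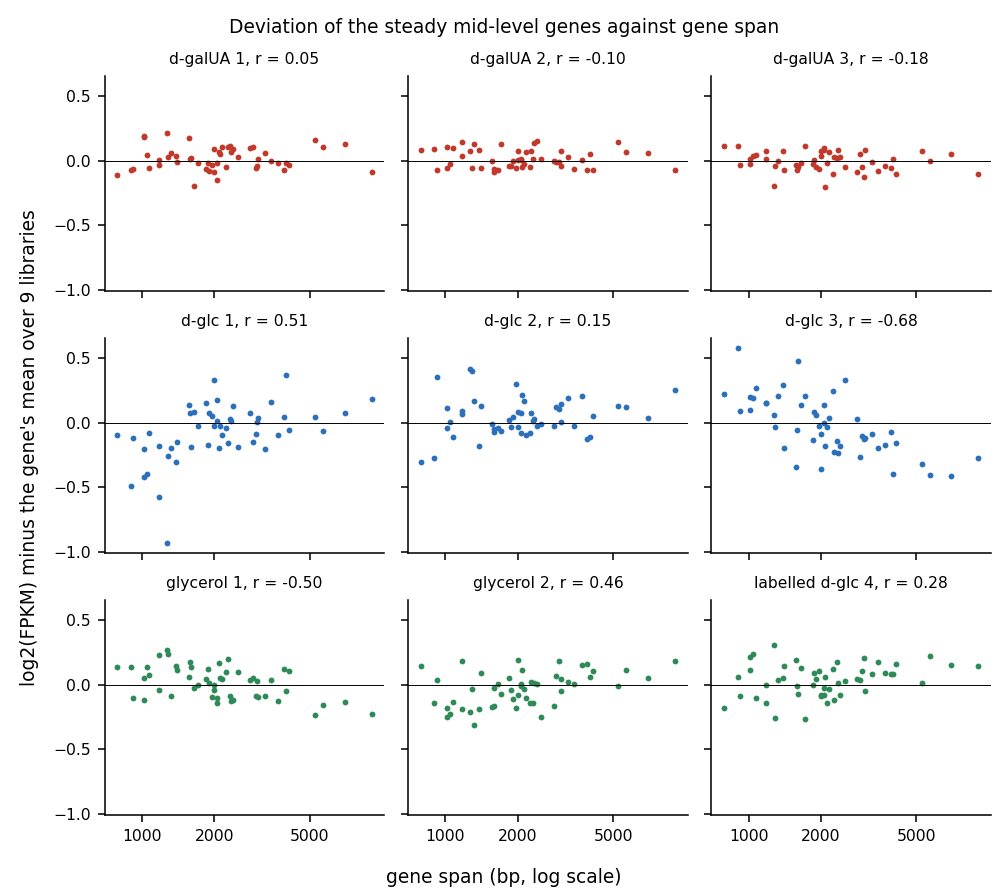
In each of 9 panels, 1 per library, each point is a member, with its gene span in bp on the horizontal log axis and its log2 FPKM less its mean over the 9 libraries on the vertical axis. In d-glc 3 the points fall with span (Pearson r -0.68), in d-glc 1 they rise (0.51), and in the d-galUA libraries they stay near 0.

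The members were spread over the genome. They lay on 17 of the 29 scaffolds, 18 of which held any gene within the level limits, with at most 6 on 1 scaffold, and 29 were on the plus strand. No member neighbored another. Among their 99 neighbors on either side the median ratio of highest to lowest mean was 1.595, and among 1010 neighbors of the other genes at that level 1.67. An overlap with another gene model was found for 5 members (9.80%), 4 of them on the opposite strand, and for 17.1% of the other genes. An S. cerevisiae ortholog was listed for 38 members (74.5%), against 66.4% of all 572 genes within the level limits. None of these differences was tested.

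Most other genes of the members' complexes and pathways were called, as were most genes in general. Of the members, 33 belong to 21 lists of complexes and pathways that were drawn up around them by S. cerevisiae ortholog. These lists hold 193 other measured genes, of which the limma F test called 141 (73.1%, beside 69.5% of all genes). The members, chosen for equal means and all uncalled, are left out of the 193 but not of all genes. The shares are thus not like for like. Among the 193, 34 were called with the highest mean on d-galUA, 77 with it on d-glc and 30 with it on glycerol, where the shares over all genes tested were 21.3%, 24.4% and 23.8%. A 2-fold ratio or more with a mean of at least 5 FPKM was found in 26 (13.5%), against 28.5% of all genes, and 5, 19 and 2 of them were highest on d-galUA, d-glc and glycerol (8.07%, 10.4% and 10% of all genes). The median ratio of the other list genes was 1.42. With the library labelled d-glc 4 counted as d-glc, 24 of the 193 were called (12.4%, beside 20.3% of all genes), so the counts per list below rest on its place among the glycerol libraries.

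**Figure D4:**
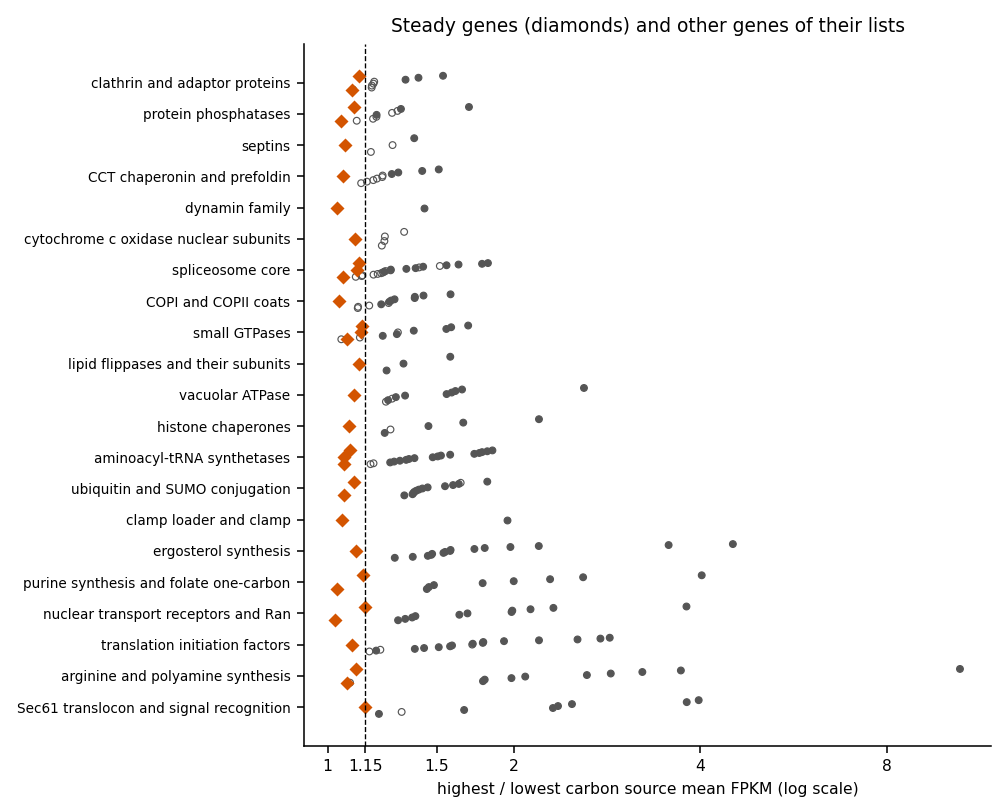
Each row is 1 list of genes and each point a gene, with the ratio of its highest to its lowest carbon source mean FPKM on the horizontal log axis. Diamonds are the members, all within the limit of 15%, filled circles other genes that the limma F test called and open circles those it did not.

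In the lists of translation and nuclear transport the calls were mostly highest on d-glc. Of the other 17 translation initiation factors, 14 were called, 13 of them highest on d-glc, and 1 with the groups as labelled. RTO4_12340 (DED1, an RNA helicase of start site scanning) had means of 126 ± 5.97, 360.5 ± 59.3 and 155 ± 14.2 FPKM (ratio 2.86). RTO4_13634 (TIF5, the initiation factor eIF5) had 211 ± 3.55, 412 ± 43.8 and 149 ± 4.67 FPKM (ratio 2.76). RTO4_13577, the second gene with the orthologs TIF1, TIF2 and FAL1, had 1565 ± 186, 2352 ± 729 and 928 ± 72.2 FPKM (ratio 2.53), while its steady counterpart RTO4_15395 was lower on every carbon source. All 11 other genes of nuclear transport were called, 10 of them highest on d-glc, beside the members CRM1 and CSE1, but 0 with the groups as labelled. RTO4_8816 (KAP123, an importin of ribosomal proteins) had means of 114 ± 2.65, 257 ± 64.3 and 67.7 ± 2.35 FPKM (ratio 3.80), and KAP114 (RTO4_11651) and LOS1 (RTO4_11224) had ratios of 2.32 and 2.13. Of the 17 other aminoacyl-tRNA synthetases 15 were called, 11 highest on d-glc (3 called with the groups as labelled), with ratios up to 1.85 in RTO4_15504 (GRS1, glycyl-tRNA synthetase).

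In the lists of purine and one-carbon metabolism and of ergosterol synthesis too, most calls were highest on d-glc. All 8 other genes of purine synthesis and one-carbon metabolism were called with the highest mean on d-glc, and 1 of them with the groups as labelled. RTO4_8395 (the IMD genes, inosine monophosphate dehydrogenase) had means of 503 ± 6.65, 1124 ± 223 and 279 ± 6.97 FPKM (ratio 4.02), one step past the steady ADE16/ADE17 on the way to guanine nucleotides. ADE6 (RTO4_15033) and GUA1 (RTO4_15756) had ratios of 2.59 and 2.29. All 15 other ergosterol genes were called, 11 highest on d-glc, and 1 was called with the groups as labelled. RTO4_11716 (ERG5, the enzyme just before ERG4 in S. cerevisiae) had means of 667 ± 26.1, 1379.8 ± 161 and 306 ± 27.98 FPKM (ratio 4.52), and ERG3 (RTO4_8781) and ERG2 (RTO4_10113) had ratios of 3.56 and 2.19. In the vacuolar proton pump 8 of 10 other subunits were called, 4 with the highest mean on glycerol and 4 on d-galUA (3 as labelled, and 5 without glycerol 1 or the library labelled d-glc 4), led by VMA10 (RTO4_16397) at a ratio of 2.60. Of the 10 other genes matched to arginine and polyamine synthesis 9 were called, 6 with the groups as labelled, and the largest ratio, 10.5, was that of RTO4_10577, which matches both SPE3 and the lysine gene LYS9.

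Other lists stayed closer to their member. Of the 20 other genes of the spliceosome list 9 were called, with a median ratio of 1.27. Of these, 2 called genes match the elongation factor genes EFT1 and EFT2 as well as SNU114 (RTO4_14093 and RTO4_9717), and without them 7 of 18 were called, with a median of 1.253. Of the 8 other clathrin and adaptor genes 3, with a median of 1.19, of the 8 other phosphatase genes 3, with 1.24, and of the 10 other chaperonin and prefoldin genes 4, with 1.23. The 4 other nuclear subunits of cytochrome c oxidase, with a median ratio of 1.24, had adjusted p from 0.0624 to 0.819. Without d-glc 3 the calls rose to 14 in the spliceosome list, 6 in the chaperonin list and 2 in that of cytochrome c oxidase. The chaperonin calls fell to 2 without glycerol 1, the clathrin calls rose to 5 without d-glc 2, and the phosphatase calls fell to 1 without d-galUA 1 or 3. With the groups as labelled these 5 lists held 1 call, in the spliceosome list. In the other lists, the test called 11 of 13 other genes of ubiquitin and SUMO conjugation, 8 of 12 of the COPI and COPII coats, 6 of 9 small GTPases, 4 of 5 histone chaperone genes, 3 of 3 flippase genes, 1 of 3 septins and the 1 other gene each of the dynamin and clamp lists. With the groups as labelled these counts were 2, 1, 0, 0, 1 and 0, with 0 in the dynamin and 1 in the clamp list. With 1 library left out the flippase calls fell to as few as 1, and the single calls of the septin and dynamin lists were lost in some cases. In the Sec61 list it called 7 of 8 (3 with the groups as labelled), but 4 of the 5 genes past 2-fold there are HSP70 chaperone genes that entered the list through the ortholog KAR2, and the other is SEC61 itself (RTO4_13373, ratio 2.31). For the called genes named above with a ratio the limma adjusted p was at most 0.000912. It was at most 0.0196 with any 1 library left out or under any other alternative that kept the 3 groups. For RTO4_14093 and RTO4_9717 the limma adjusted p was 0.00879 and 0.00293, and at most 0.0292 and 0.0193 under those alternatives. Both calls were lost with the groups as labelled (0.209 and 0.0549). With the library labelled d-glc 4 counted as d-glc, the calls of SEC61 (adjusted p = 0.000469), DED1 (0.0355), GRS1 (0.0151), VMA10 (0.0366) and RTO4_10577 (0.00678) held. Those of TIF5, RTO4_13577, KAP123, KAP114, LOS1, IMD, ADE6, GUA1, ERG5, ERG3 and ERG2 did not, with adjusted p from 0.0835 to 0.286.

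None of the 19 measured orthologs of customary reference genes was among the members. Only 9 of the 19 had all 3 means within the level limits, where the members made up 8.92% of the numbered genes. The limit on the ratio was met by 2 of the 19, beside 6.66% of all genes tested. The limma F test called 15 of the 19 (78.9%, beside 69.5% of all genes), and 3 of them (15.8%, beside 28.5% of all genes) differed 2-fold or more. RTO4_11492 (HSC82 and HSP82, the chaperone HSP90) had means of 2074 ± 99.2, 1311 ± 169 and 448 ± 15.1 FPKM (ratio 4.63), RTO4_13630 (PDA1, a subunit of pyruvate dehydrogenase) of 894 ± 38.7, 475 ± 33.2 and 370.3 ± 15.9 FPKM (ratio 2.41), and RTO4_15721 (PGK1, the glycolytic phosphoglycerate kinase) of 402 ± 24.03, 837 ± 124 and 548 ± 11.4 FPKM (ratio 2.08). RTO4_10613 (TDH1 to TDH3, glyceraldehyde-3-phosphate dehydrogenase) had a ratio of 1.94, with its lowest mean on d-galUA. These genes of carbon metabolism and folding had CVs of 28.1% to 55.7% over the 9 libraries.

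Elongation factor, tubulins and housekeeping enzymes lay between. RTO4_12693 (TEF1 and TEF2, elongation factor 1 alpha) had means of 3903 ± 80.7, 4959 ± 669.5 and 3085 ± 178 FPKM (ratio 1.61). The beta tubulin genes, 3 models that match TUB2, had ratios of 1.63 (RTO4_12261), 1.24 (RTO4_12661) and 1.64 (RTO4_13312), and the alpha tubulin gene RTO4_9843 (TUB1 and TUB3) 1.51. The first was highest on glycerol, the second on d-galUA. RTO4_9039 (ALG9, a mannosyltransferase) had a ratio of 1.83, RTO4_13617 (PMA1 and PMA2, the plasma membrane proton pump) of 1.67, RTO4_15879 (IPP1, inorganic pyrophosphatase) of 1.43, RTO4_9621 (UBC6, a ubiquitin-conjugating enzyme) of 1.404, RTO4_14584 (SPT15, the TATA-binding protein) of 1.39 and RTO4_9589 (PGI1, phosphoglucose isomerase) of 1.302. The calls of RTO4_12661 and PGI1 were the least stable and held in 9 and 8 of 18 fits. That of SPT15 was lost without d-galUA 3 (limma adjusted p = 0.0607) and that of IPP1 with the replicate block (0.0516). With the groups as labelled the calls of RTO4_12661 (0.201) and PGI1 (0.185) were lost. Those of TEF1/TEF2 (0.286), RTO4_13312 (0.167), ALG9 (0.083), UBC6 (0.145), IPP1 (0.25) and SPT15 (0.0596) were lost there too.

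Of the customary genes, 4 were not called. RTO4_13015 (RPN2, a proteasome subunit) had a ratio of 1.01 and a CV of 8.39%, but at means of 59.3 ± 3.75, 59.6 ± 6.31 and 59.9 ± 6.77 FPKM it lay below the level limit. RTO4_14107 (ACT1, actin) had means of 2327 ± 47.8, 1966 ± 363 and 2209 ± 157 FPKM, a ratio of 1.18 and a CV of 11.8%, above the limits of level and ratio. The limma adjusted p of ACT1 was 0.276, with 0.0365 to 0.636 over all alternatives, the lowest without d-glc 2. RTO4_14577 (RPO21 and RPO31, the largest subunits of RNA polymerases) had a ratio of 1.24 and a CV of 13.9%, and was called without d-glc 2 (adjusted p = 0.0432) and without glycerol 1 (0.0497). RTO4_15852 (CPR1 and CPR3, cyclophilins) had a ratio of 1.13 but a CV of 27.3%, with 1226, 1419.7 and 1546 in d-galUA 1 to 3, 773, 915 and 2008 in d-glc 1 to 3, 1361 and 1247 in glycerol 1 and 2, and 1253 in that labelled d-glc 4 FPKM. Its d-glc libraries again held both the lowest and the highest value, and without d-glc 3 it was called (adjusted p = 0.0021). With the groups as labelled, 7 of the 19 were called (36.8%, beside 20.3% of all genes).

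**Figure D5:**
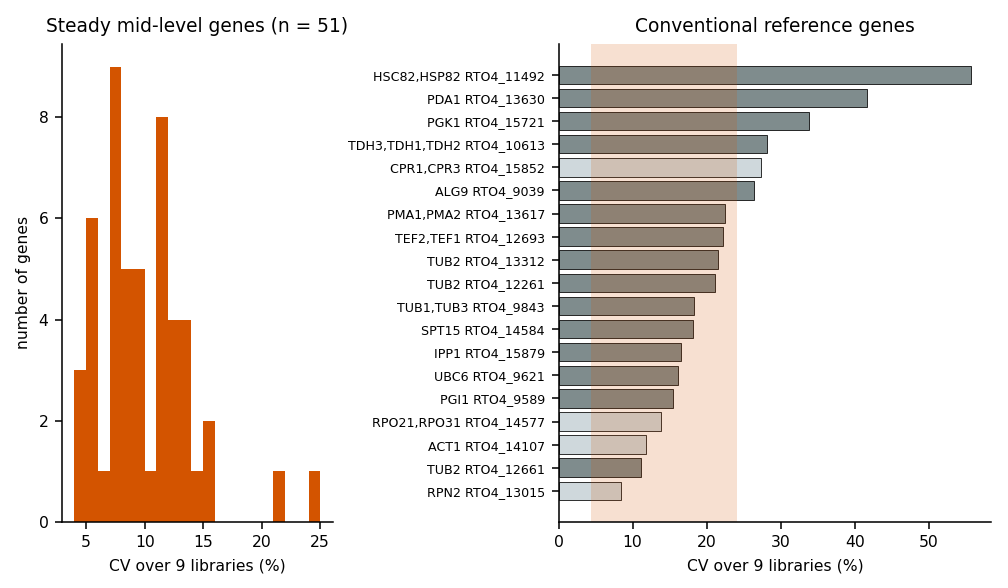
The left panel counts the 51 members by CV over the 9 libraries in percent, and the right panel gives the CV of each of the 19 orthologs of customary reference genes as a bar (dark where the limma F test called the gene, light where it did not). The shaded band spans the members' CVs from 4.402% to 24.1%, and RPN2 at 8.39% had the lowest CV of the customary genes.

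Membership depended on single libraries at the margin. Counting the library labelled d-glc 4 as d-glc left 43 of the 51 members within the limits, and leaving it out altogether also left 43. Without d-glc 2, 38 genes met the limits, 35 of them members. Over the 13 alternatives that recompute the ratio, 21 members stayed within the limit of 15% in all, 49 stayed within 25% in all, and the largest ratio was 1.408, for RTO4_16703 without d-glc 2. The limma F test called RTO4_13027 (adjusted p = 0.0404) and RHB1 (0.0469) without d-glc 1, YPT1 (0.0153), VMA1 (0.0235), MIS1/ADE3 (0.0345) and RTO4_11087 (0.0431) without d-glc 2, and RTO4_8909 (0.0156) without d-glc 3. In the fit of all libraries the members' adjusted p ran from 0.103 to 0.937.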

How the data were processed

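The members and the lists of genes were chosen with earlier results of these data known. Poly(A) RNA gave single-end reads of 50 bp, which the authors aligned to the v4 gene models of IFO0880 using HISAT2 2.1.0. StringTie 1.3.3b gave the abundances, and the submitters' processing notes also name bcl2fastq 2.17 and CASAVA. The handling of strand and of multi-mapped reads is not given in the sources used here. The deposited tables hold FPKM, TPM and coverage per gene model for each library. FPKM as deposited was the main measure, deposited TPM (rescaled by the authors to a fixed sum per library) an alternative, and the ratio of deposited coverage to FPKM gave the depth. FPKM is a relative level, and its sum over all gene models ran from 667605 in glycerol 2 to 774185 in d-glc 3. With no read counts, no count model was used.

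Means, SDs and CVs were taken on FPKM. Limma 3.58.1 (R 4.3.3) was fitted to log2(FPKM + 1) of 8479 genes in 3 groups of 3 libraries, with a trend of variance on mean level and p-values adjusted by Benjamini-Hochberg over all genes. Log2 differences from this fit understate the change of low genes. The libraries of a group are cultures from 1 starter, per the study's methods, and the p-values measure the spread between them. On simulated data with 200 changed genes, the F test recovered 92 of 100 genes at 2-fold and 40 of 100 at 1.5-fold. Only these 200 of the 8479 genes were changed, and on d-galUA alone, where the test called 69.5% of the real genes. The adjustment depends on the share of changed genes, so these counts do not give the recovery in the real data. Values in each library are given for the 10 members of the lowest and the 5 of the highest CV, the 3 genes on either side of the ratio limit and the members of the lowest and highest level. Of the customary reference genes every one measured is named, and of other lists up to 3 called genes with the largest ratios. Columns of the authors' own comparisons were not used. Figures and tables used Python 3.11.15, numpy 2.4.6, pandas 2.3.3, scipy 1.17.1 and matplotlib 3.10.9. The alternatives were other pseudocounts, filters, ratio limits and scalings, TPM, the groups as labelled, a replicate block and each library left out.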

Additional observations from a re-analysis of the deposited data

Results flagged for a closer look

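In 3 of the 51 members, 1 of the 4 libraries labelled d-glc stood apart from the other 3, by a test of the largest gap against the range (Dixon's test), which flags about 1 in 20 groups by chance. The count of 3 of 51 is close to that share, and the 4 libraries include d-glc 4, averaged above as glycerol. In each case the library that stood apart was d-glc 3. RTO4_13007 (COX13) stood at 545.3 FPKM there, with a gap of 0.854 of the range. RTO4_9405 (SMT3) stood at 1111 FPKM, with a gap of 0.935. RTO4_14208, which has no listed ortholog, stood at 110.4 FPKM, below the others, with a gap of 0.945.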

How the results depend on the processing

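The 51 members became 81 genes with TPM (38 of them members), 27 with a ratio of at most 1.1 and 78 with at most 1.2, and 38 to 58 with each library left out in turn. Their median CV of 9.08% became 10.8% with TPM and 7.87% to 9.66% with each library left out. The count of all genes called by the limma F test, 5895, fell to 1725 with the groups as labelled and ran from 5327 to 6058 with each library left out. Members called ran from 0 to 4 with each library left out and stayed at 0 under the other alternatives. Of the 19 customary reference genes, 15 were called, 7 with the groups as labelled and 12 to 16 with each library left out. Of the 193 other genes of the members' lists, 141 were called, 24 with the groups as labelled and 121 to 145 with each library left out, alternatives chosen for the lists after seeing the data. In the 7 pairs of libraries that share a replicate number, deviations correlated from -0.14 to 0.20, and in the other pairs from -0.24 to 0.32. These values show no sign that the numbers pair the libraries, but they cannot exclude a pairing. A replicate block gave 5150 called genes in all, 0 members, 122 list genes and 13 customary genes. Depth was 25800000 reads or more in each library, and counting error was not computed, since the tables hold no counts. The cause of these changes was not tested.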

Other observations

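Genes as steady as the members also occurred outside the level limits. Above them, 4 numbered genes had a highest mean at most 15% above the lowest. RTO4_9916 (ARF1 and ARF2, GTPases of vesicle formation) had means of 1627 ± 33.8, 1454 ± 58.1 and 1604 ± 64.8 FPKM on d-galUA, d-glc and glycerol (SD, n = 3) and a CV of 6.001% over the 9 libraries. RTO4_15078, without a listed ortholog, had means of 1486 ± 96.0, 1534 ± 39.4 and 1528 ± 181 FPKM and a CV of 7.05%. RTO4_11021 (POR1, the porin of the mitochondrial outer membrane) had means of 2953 ± 152, 2829 ± 519 and 2858 ± 305 FPKM and a CV of 10.95%, and it overlaps another model over 53 bp. CPR1 (RTO4_15852), with a CV of 27.3%, was the other.

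In the members' own lists, 11 other genes met the same ratio, 10 of them with a mean under 100 FPKM. The splicing genes CEF1 (RTO4_13233) and RSE1 (RTO4_15303) had CVs of 6.64% and 8.38%, and the clathrin adaptor gene APL4 (RTO4_9497) of 6.62%. CAR1 (RTO4_16181), the arginase that breaks arginine down, had means of 53.5 ± 2.38, 58.2 ± 4.45 and 57.2 ± 3.85 FPKM and a CV of 6.79%.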
